A study of Mus musculus with 8 samples.

Results

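The class I and class II major histocompatibility complex (MHC) genes and the genes of the interferon response were examined in whole kidneys of mice. They comprised 42 named genes of the 55401 listed for each kidney, matched by Ensembl identifier without its version to GENCODE M21 symbols (mm10). RNA-Seq libraries came from 4 control and 4 SIK mutant mice. Per the labels, the controls were SIK1f/f, SIK2f/f and SIK3f/f, that is, floxed for 3 salt-inducible kinase genes without a Cre transgene, and the mutants carried Six2-Cre on top of these alleles. Six2-Cre recombines in nephron progenitors, so that blood, vessel and stromal cells of the whole kidney keep intact alleles. The study's text describes surviving mutants with only 1 floxed *Sik1* allele, which differs from the labels. No sex, age, litter, strain or H2 haplotype is labelled. The p-values set the difference between groups against the variation among these 8 samples.

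Interferons are secreted proteins that signal through JAK kinases and STAT transcription factors. Type I interferons act mainly through a complex of STAT proteins with IRF9, which binds interferon-stimulated response elements (ISREs), and interferon gamma acts mainly at gamma-activated sites (GAS). Their targets include antiviral effectors, guanylate-binding proteins, and the proteins that cut peptides, carry them into the endoplasmic reticulum and load them on class I molecules. Class I molecules are found on almost all cells, and class II molecules mainly on dendritic cells, macrophages and B cells.

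The libraries held between 10179648 and 10925100 expected counts, so that 3 counts, the level that a count of 0 allows, corresponded to 0.263 to 0.304 CPM (read counts relative to the normalised library size). These limits cover counting error only. Controls 3 and 4 stood apart from the other 6 kidneys: 4 Y-linked genes averaged at most 0.0438 CPM in them and between 19.2 and 23.7 CPM in controls 1 and 2 and all 4 mutants. No mutant lacked Y-linked reads, so genotype could not be compared among kidneys without them, and fold changes are given for all 8 kidneys and for the 6 kidneys with Y-linked reads. *Sik3* was measured at 58.6, 66.5, 65.7 and 61.0 CPM in controls 1 to 4 and at 41.4, 39.7, 43.1 and 33.7 CPM in mutants 1 to 4, with no overlap. *Sik1* was measured at 41.1, 36.7, 43.2 and 42.3 CPM in the controls and at 54.1, 52.3, 52.5 and 43.4 CPM in the mutants. Its counts over the whole gene were thus not lower in the mutants, and every mutant was above every control, mutant 4 only slightly. *Sik2* ranged from 7.97 to 9.95 CPM in the controls and from 4.50 to 9.30 CPM in the mutants.

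Of the 42 genes, 41 passed the filter on low counts and none of these was called different between SIK mutant and control kidneys (edgeR quasi-likelihood test, adjusted p under 0.05), where the share called among all 14326 tested genes was 0.0%. The lowest adjusted p among them was 0.702, and DESeq2 and limma-voom likewise called 0 of them. *Mx1*, an antiviral GTPase, did not pass the filter and reached at most 0.866 CPM, in mutant 4. One gene, *Gbp3*, had an unadjusted edgeR p under 0.05 with lower values in mutants, against 3.59% of all tested genes, and none had one with higher values, against 2.76%. In none of the 41 genes were the control and mutant ranges apart, against 4.03% of all genes.

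Although no single gene passed the test, 33 of the 41 tested genes had a log2 fold change under 0 (mutant over control), which is 80.5% against 50.8% of all genes. Their median log2 fold change was -0.18 (range -2.04 to 0.18) against -0.00 for all genes. Without controls 3 and 4 the picture turned: 33 of 41 had a log2 fold change over 0, again 80.5%, against 51.7% of the 14719 genes tested in 6 kidneys, with a median of 0.15 (range -0.26 to 0.77) against 0.01 for all genes. None of the 41 genes was called in the 6 kidneys, where 0.143% of all genes were called.

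**Figure D1:**
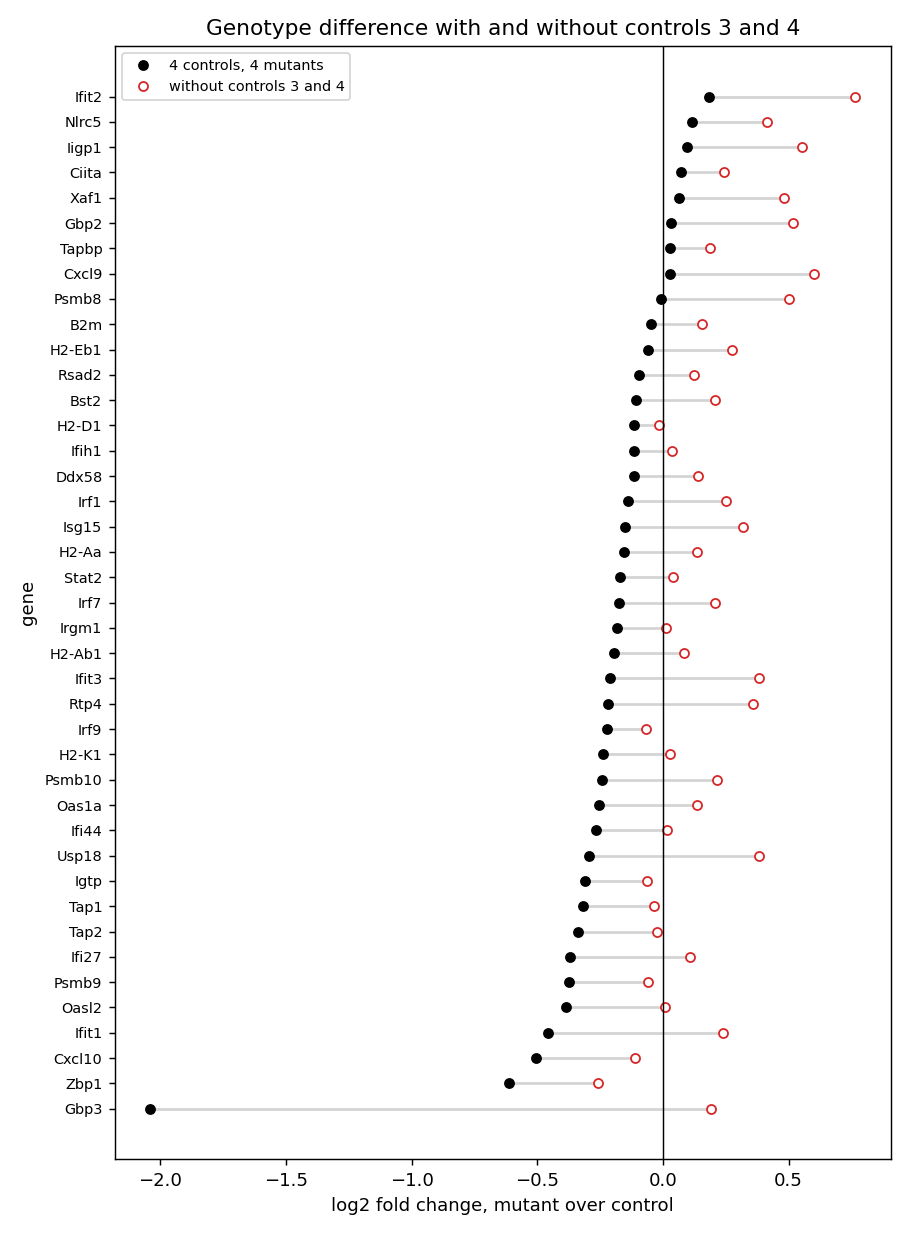
Log2 fold change (mutant over control, x axis) of each of the 41 tested genes (y axis), from all 8 kidneys (filled) and from the 6 kidneys with Y-linked reads (open). Filled points lie under 0 for 33 genes and open points lie over 0 for 33 genes.

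The levels in controls 3 and 4 accounted for this turn. In all 41 tested genes the mean of these controls was above the mean of controls 1 and 2, which held for 51.0% of all tested genes. The fold between the control pairs had a median of 1.504 across the 41 genes, from 1.13 for *H2-D1* to 8.30 for *Gbp3*, against a median of 1.01 across all genes. Controls 3 and 4 were the highest of the 8 kidneys in 16 of the 41 genes, against 10.7% of all genes, and in 32 of 41 the means stood in the order controls 1 and 2, mutants, controls 3 and 4, against 25.6% of all genes. The highest single value belonged to control 4 for 18 genes, to control 3 for 15, to mutant 1 for 4, to mutant 2 for 2 and to mutants 3 and 4 for 1 each, and never to control 1 or 2. The lowest value belonged to mutant 3 for 12 genes and to control 1 and mutant 4 for 9 each.

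**Figure D2:**
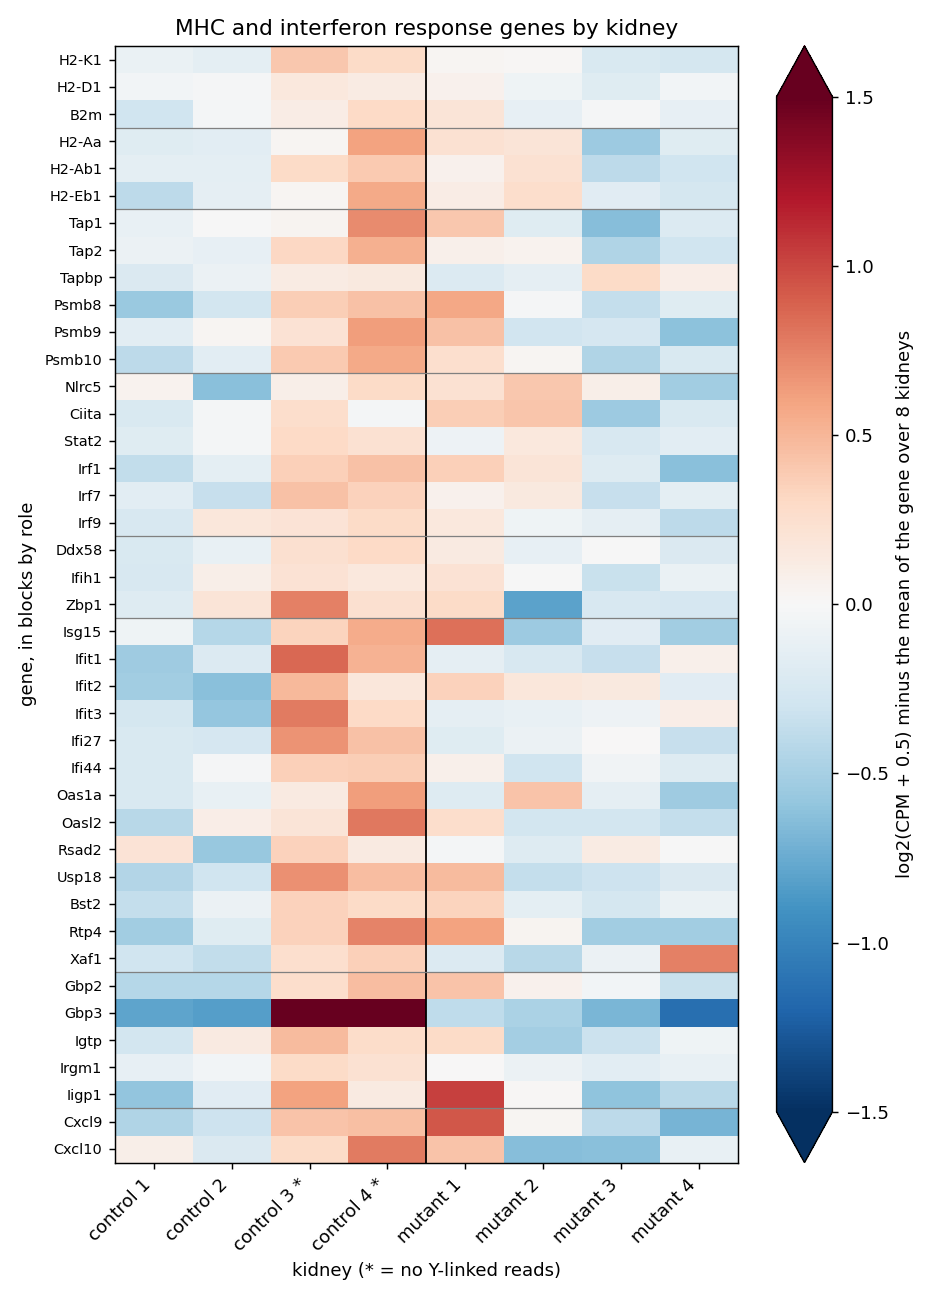
Expression of the 41 tested genes (rows, in blocks by role) in the 8 kidneys (columns; * marks no Y-linked reads), as log2(CPM + 0.5) minus the mean of each gene; the colours are cut at 1.5 in either direction. Controls 3 and 4 are mostly red, mutant 1 is red in many rows, and *Gbp3* is beyond the scale in controls 3 and 4.

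Class I molecules consist of a heavy chain and beta-2-microglobulin, encoded by *B2m*, the most abundant of the 42 genes with a mean of 373 TPM (a level scaled to gene length and library total). *B2m* was measured at 183, 223, 244 and 278 CPM in controls 1 to 4 and at 258, 207, 224 and 207 CPM in mutants 1 to 4. The log2 fold change was -0.05 ± 0.14 (SE; adjusted p = 0.973) in 8 kidneys and 0.15 ± 0.13 (SE; adjusted p = 0.691) in 6, and the groups overlapped. *H2-K1*, a classical heavy chain gene with a mean of 317 TPM, was measured at 154, 150.2, 220.3 and 202 CPM in the controls and at 169.6, 167, 141 and 138 CPM in the mutants. Controls 3 and 4 lay above every mutant, and controls 1 and 2 lay within the range of the mutants. Its log2 fold change was -0.24 ± 0.14 (SE; adjusted p = 0.823) in 8 kidneys and 0.03 ± 0.11 (SE; adjusted p = 0.943) in 6. The other classical heavy chain gene, *H2-D1*, had a mean of 86.6 TPM and ranged from 132 to 167 CPM over all kidneys. Effective lengths, which follow the mix of transcripts, were 502 to 622 bases for *H2-K1* and 1813 to 1859 bases for *H2-D1*. The TPM of these genes therefore differ more than their CPM.

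Among the class II chains, the alpha chain of I-A came first in level per length. Its gene, *H2-Aa*, was measured at 57.65, 58.5, 66.5 and 99.6 CPM in controls 1 to 4 and at 76.5, 74.6, 44.7 and 57.6 CPM in mutants 1 to 4. The log2 fold change of *H2-Aa* was -0.16 ± 0.22 (SE; adjusted p = 0.940) in 8 kidneys and 0.14 ± 0.20 (SE; adjusted p = 0.828) in 6. *H2-Ab1*, the beta chain of I-A, was measured at 53.6, 53.9, 72.8 and 78.5 CPM in the controls and at 62.4, 69.8, 45.2 and 48.5 CPM in the mutants. In both genes control 4 was highest and mutant 3 lowest. *H2-Eb1*, the beta chain of I-E, ranged from 32.8 to 64.3 CPM. *Cd74*, the invariant chain that escorts class II molecules, ranged from 132 to 241 CPM with control 4 again highest.

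Genes for peptide supply to class I comprised the transporter subunits *Tap1* and *Tap2*, the loading factor *Tapbp* (tapasin) and the immunoproteasome subunits *Psmb8*, *Psmb9* and *Psmb10*. *Tapbp* was measured at 59.9, 65.3, 75.7 and 76.9 CPM in controls 1 to 4 and at 60.5, 63.2, 84.8 and 74.9 CPM in mutants 1 to 4, with mutant 3 highest. *Psmb10* was measured at 9.84, 11.7, 17.3 and 19.7 CPM in the controls and at 15.6, 13.4, 9.40 and 11.1 CPM in the mutants. Here controls 3 and 4 were again above every other kidney. *Tap1* and *Tap2* ranged from 6.88 to 18.3 and from 11.4 to 23.03 CPM, *Psmb8* from 5.68 to 13.1 CPM and *Psmb9* from 2.60 to 6.83 CPM. In 5 of these 6 genes the log2 fold change was under 0, with a median of -0.28, and in the 6 kidneys the median was 0.08.

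Among the transcriptional regulators, *Irf7*, an interferon-induced factor that amplifies type I interferon production, was measured at 13.8, 12.0, 21.2 and 19.8 CPM in controls 1 to 4 and at 16.1, 17.1, 12.0 and 14.0 CPM in mutants 1 to 4. *Irf9*, the DNA-binding subunit of the STAT complex, was measured at 13.7, 18.3, 18.8 and 19.9 CPM in the controls and at 18.2, 15.5, 14.7 and 12.2 CPM in the mutants. In both genes controls 3 and 4 held the highest values, by a margin under 1 CPM in *Irf9*. *Irf1* and *Stat2* ranged from 7.12 to 15.5 and from 13.1 to 19.4 CPM. *Nlrc5* and *Ciita*, the coactivators of class I and class II genes, were sparse, at 1.58 to 3.75 and 1.45 to 3.30 CPM.

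The cytosolic RNA sensors bind viral RNA and start interferon production. *Ddx58*, which encodes RIG-I, was measured at 21.9, 23.9, 30.7 and 31.9 CPM in controls 1 to 4 and at 28.4, 23.7, 25.8 and 22.2 CPM in mutants 1 to 4. *Ifih1*, which encodes MDA5, was measured at 8.93, 11.4, 12.5 and 11.9 CPM in the controls and at 12.5, 10.6, 8.33 and 9.91 CPM in the mutants. The control and mutant ranges overlapped in both genes. *Zbp1*, a sensor of Z-form nucleic acid, was near the lower end of measurable levels, at 0.892 to 3.61 CPM.

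The 13 tested effectors of the type I interferon response had a median log2 fold change of -0.22 in 8 kidneys, 11 of them under 0, and of 0.24 in 6 kidneys, 13 of them over 0. *Ifi27*, the effector with the highest level per length (56.6 TPM), was measured at 24.3, 23.8, 45.6 and 38.7 CPM in controls 1 to 4 and at 25.1, 26.8, 28.6 and 22.3 CPM in mutants 1 to 4. The mutants lay beside controls 1 and 2, with log2 fold changes of -0.37 ± 0.21 (SE; adjusted p = 0.808) in 8 kidneys and 0.11 ± 0.12 (SE; adjusted p = 0.775) in 6. *Bst2* (tetherin), which holds budding virus at the cell surface, was measured at 10.7, 12.9, 17.6 and 16.98 CPM in the controls and at 17.5, 12.4, 11.4 and 12.8 CPM in the mutants. Mutant 1 was level with controls 3 and 4 in *Bst2*.

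In the 6 kidneys, 3 of the 41 genes (7.32%), *Ifit2*, *Ifit3* and *Gbp2*, had an unadjusted edgeR p under 0.05 with higher values in mutants, against 6.40% of all genes. All 4 mutants lay above both controls in these 3 genes (7.32%), against 10.3% of all genes. Both shares were near or below those of all genes, and the 3 genes are described only because of these values. *Ifit2* and *Ifit3* encode tetratricopeptide proteins that act on viral RNA. *Ifit2* was measured at 5.99, 5.53, 12.6 and 9.98 CPM in controls 1 to 4 and at 11.3, 9.99, 9.78 and 7.79 CPM in mutants 1 to 4. Its log2 fold change was 0.77 ± 0.20 (SE; adjusted p = 0.246) in 6 kidneys and 0.18 ± 0.26 (SE; adjusted p = 0.943) in 8. *Ifit3* was measured at 19.6, 15.6, 41.0 and 29.2 CPM in the controls and at 21.5, 21.8, 22.4 and 25.4 CPM in the mutants. Its log2 fold change was 0.38 ± 0.13 (SE; adjusted p = 0.360) in 6 kidneys and -0.21 ± 0.26 (SE; adjusted p = 0.931) in 8, so that its direction depended on controls 3 and 4. *Ifit3* shares 31.7% of its 100-base transcript windows with *Ifit3b*, and how RSEM divided reads between them bears on its counts.

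The other effectors were low to moderate in level. *Rsad2* (viperin) ranged from 14.6 to 28.1 CPM, *Ifi44* from 11.3 to 18.4 CPM, *Oasl2* from 8.22 to 19.6 CPM and *Ifit1* from 3.76 to 10.7 CPM. *Isg15*, a ubiquitin-like modifier, ranged from 1.96 to 5.91 CPM, and *Usp18*, which removes it from proteins, from 1.83 to 4.58 CPM. *Rtp4* ranged from 4.23 to 10.94 CPM, *Xaf1* from 2.77 to 6.83 CPM and *Oas1a* from 1.64 to 4.29 CPM. Mutant 1 held the highest *Isg15* value and mutant 4 the highest *Xaf1* value. *Oas1a* shares 40.9% of its windows with *Oas1g* and had the largest relative posterior SD of the 42 genes, 8.96% of its count.

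*Gbp3* had the largest difference between kidneys. It encodes a guanylate-binding protein, a family of large GTPases that act on intracellular pathogens, and lies on chr3:142560026-142573209, in the cluster that also holds *Gbp2*. It was measured at 5.28, 5.14, 41.7 and 44.7 CPM in controls 1 to 4 and at 7.15, 6.69, 5.71 and 4.04 CPM in mutants 1 to 4. Controls 3 and 4 were 5.84-fold or more above each of the other 6 kidneys, and 5 of the 14326 tested genes (0.0349%) showed a step at least as large between these controls and the rest, whereas the next of the 41 genes, *Ifit1*, had a step of 1.39-fold. The log2 fold change in 8 kidneys was -2.04 ± 0.70 (SE; unadjusted p = 0.0158, adjusted p = 0.702, edgeR), with a two-sided exact permutation p of 0.343. In the 6 kidneys it was 0.19 ± 0.26 (SE; adjusted p = 0.808), so the difference between genotypes in 8 kidneys rested on controls 3 and 4. The posterior SD of its counts was 0 in all kidneys and 0.69% of its windows were shared with another gene, *Gbp7*. Its effective length, which follows the mix of transcripts, was 2327 and 2267 bases in controls 3 and 4 and between 1622 and 2243 bases in the others.

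*Gbp2* did not share this step. It was measured at 8.73, 8.69, 14.3 and 16.6 CPM in controls 1 to 4 and at 16.1, 12.5, 11.5 and 9.33 CPM in mutants 1 to 4. Its log2 fold change was 0.52 ± 0.22 (SE; adjusted p = 0.436) in 6 kidneys and 0.03 ± 0.25 (SE; adjusted p = 0.990) in 8. The ratio of *Gbp3* to *Gbp2* was 0.605 and 0.591 in controls 1 and 2, 2.91 and 2.704 in controls 3 and 4, and between 0.433 and 0.536 in the mutants.

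The immunity-related GTPases *Irgm1*, *Igtp* and *Iigp1* act on vacuoles that hold pathogens. *Irgm1* was measured at 33.0, 34.9, 44.0 and 42.3 CPM in controls 1 to 4 and at 36.1, 34.0, 32.4 and 33.4 CPM in mutants 1 to 4. *Igtp* was measured at 15.2, 20.4, 25.8 and 22.4 CPM in the controls and at 22.6, 12.8, 14.6 and 17.6 CPM in the mutants, with a log2 fold change of -0.31 ± 0.20 (SE; adjusted p = 0.850) in 8 kidneys and -0.06 ± 0.23 (SE; adjusted p = 0.936) in 6. Controls 3 and 4 lay above all mutants in *Irgm1* and mutant 1 lay between them in *Igtp*. *Iigp1* ranged from 7.85 to 25.2 CPM, with mutant 1 highest.

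*Cxcl9* and *Cxcl10*, chemokines that attract T cells through CXCR3, were low in all kidneys. *Cxcl10* was measured at 4.16, 3.26, 4.84 and 7.004 CPM in controls 1 to 4 and at 5.38, 2.32, 2.32 and 3.56 CPM in mutants 1 to 4, with a log2 fold change of -0.50 ± 0.33 (SE; adjusted p = 0.850) in 8 kidneys and -0.11 ± 0.38 (SE; adjusted p = 0.930) in 6. *Cxcl9* was measured at 2.03, 2.27, 4.14 and 4.20 CPM in the controls and at 6.09, 3.03, 2.13 and 1.64 CPM in the mutants. Mutant 1 was the highest kidney for *Cxcl9* and control 4 for *Cxcl10*.

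**Figure D3:**
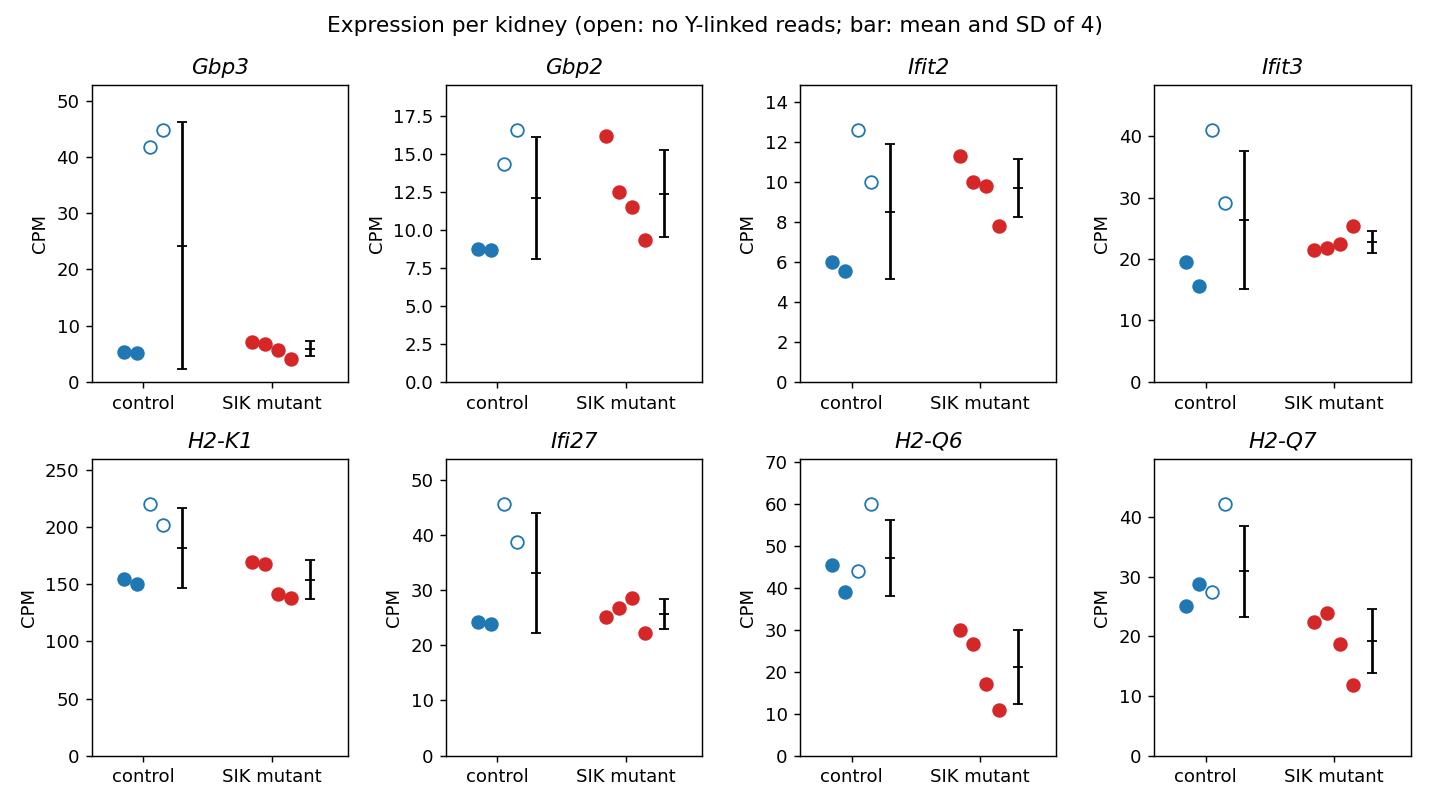
CPM (y axis, from 0) of 8 genes in each kidney, controls in blue and mutants in red, open where no Y-linked reads were found; the bar is the mean ± SD of 4 kidneys. *Gbp3* is at 41.7 and 44.7 CPM in controls 3 and 4 and at most 7.15 CPM elsewhere, while *H2-Q6* and *H2-Q7* are lower in each mutant than in each control.

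Promoter letters are given as a description of these genes. The list was chosen for interferon-induced and antigen presentation genes, so its share of ISRE letters is not a result about these kidneys. In RefSeq windows (GRCm38.p6) from 250 bases before to 50 bases after the transcription start, 32 of the 42 genes had an entry. The ISRE-type letters GAAA, 2 bases of any kind and GAAA again, on either strand, were found in 15 of these 32 genes (46.9%), against 3.99% of 27025 genes. The GAS-type letters TTCNNNGAA, which read the same on both strands, were found in 6 of 32 (18.8%), against 9.55% of all genes; the motifs were searched separately and may overlap. A match is a description of the letters and not a bound site. The stretches below are shown because they carry the ISRE-type letters of a gene from several of the roles, on the strand of the gene and with overlapping matches merged; the capitals mark the matches. They begin 160 bases before the start and end before any GENCODE M21 exon. *B2m* lies at chr2:122147527-122147685 (plus strand), *Isg15* at chr4:156200819-156200978 (minus), *Rsad2* at chr12:26456453-26456612 (minus), *Ifit3* at chr19:34583369-34583528 (plus), *Bst2* at chr8:71537473-71537632 (minus), *Gbp3* at chr3:142559884-142560025 (plus) and *Igtp* at chr11:58199396-58199555 (plus).
B2m: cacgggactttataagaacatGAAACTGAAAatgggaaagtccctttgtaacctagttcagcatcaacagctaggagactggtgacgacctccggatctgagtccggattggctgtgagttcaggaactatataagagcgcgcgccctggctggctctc
Isg15: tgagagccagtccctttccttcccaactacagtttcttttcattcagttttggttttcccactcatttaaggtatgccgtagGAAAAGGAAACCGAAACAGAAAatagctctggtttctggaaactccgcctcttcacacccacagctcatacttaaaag
Rsad2: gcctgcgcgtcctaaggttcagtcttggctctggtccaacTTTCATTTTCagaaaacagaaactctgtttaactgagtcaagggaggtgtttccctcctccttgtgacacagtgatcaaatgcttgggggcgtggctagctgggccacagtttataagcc
Ifit3: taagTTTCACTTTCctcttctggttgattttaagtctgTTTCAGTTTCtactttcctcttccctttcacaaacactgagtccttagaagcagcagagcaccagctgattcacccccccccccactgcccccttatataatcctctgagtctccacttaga
Bst2: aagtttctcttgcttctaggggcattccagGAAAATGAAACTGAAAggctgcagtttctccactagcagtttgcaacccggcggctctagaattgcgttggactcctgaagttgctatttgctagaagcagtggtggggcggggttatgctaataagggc
Gbp3: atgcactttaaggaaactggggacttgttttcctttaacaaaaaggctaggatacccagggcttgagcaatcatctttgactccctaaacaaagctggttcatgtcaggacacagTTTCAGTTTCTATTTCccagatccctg
Igtp: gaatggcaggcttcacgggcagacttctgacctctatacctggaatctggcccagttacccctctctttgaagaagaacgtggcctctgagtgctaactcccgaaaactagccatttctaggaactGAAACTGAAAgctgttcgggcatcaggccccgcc

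*Isg15* holds 3 overlapping matches, the first beginning 78 bases before the start, and *Gbp3* and *Bst2* hold 2 overlapping matches each. In *Ifit3* the 2 matches are separate, beginning 156 and 122 bases before the start. The match of *B2m* begins 139 bases before the start, that of *Rsad2* 120 bases and that of *Igtp* 34 bases. *Gbp2* has a match 59 bases before its RefSeq start, within an exon of another annotated transcript, so its stretch is not shown. *Isg15*, *Ifit3* and *Bst2* hold as many matches as *Gbp3* or more.

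Other genes of these pathways were read from lists of 155 genes, of which 153 were matched and 128 tested. The edgeR test called none of them in 8 kidneys, and DESeq2 called *H2-Q6*, where it called 67 of all 14326 tested genes. With an unadjusted edgeR p under 0.05, 5 were lower in mutants, against 3.59% of all genes, and 1 was higher, against 2.76%. A log2 fold change under 0 was found in 81 of 128, against 50.8% of all genes, with a median of -0.06. In the 6 kidneys, 10 of 129 were higher at the same level, against 6.40% of all genes, and 1 was lower, with a median of 0.10. Of the interferons on the lists, *Ifnb1*, *Ifnk* and *Ifne* had 0 counts in all 8 kidneys, which allows up to 0.304 CPM, and *Ifng* had 1 count in each of controls 1, 3 and 4 and mutant 4 and 0 elsewhere. The receptor subunit genes *Ifnar1* and *Ifngr1* ranged from 23.7 to 30.5 and from 22.1 to 34.8 CPM.

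Among 24 tested genes of class I presentation outside the 42, 2 nonclassical heavy chain genes of the Q region had the lowest p. *H2-Q6* (chr17:35424850-35430055) was measured at 45.4, 39.0, 44.1 and 60.0 CPM in controls 1 to 4 and at 29.8, 26.7, 17.1 and 10.87 CPM in mutants 1 to 4. Every mutant was below every control, with a log2 fold change of -1.15 ± 0.28 (SE; unadjusted p = 0.00226, adjusted p = 0.454, edgeR) and an exact permutation p of 0.0286, the smallest that 4 against 4 allows. DESeq2 called it (adjusted p = 0.0174), and in the 6 kidneys the log2 fold change was -0.98 ± 0.32 (SE; adjusted p = 0.347). *H2-Q7* (chr17:35439155-35443773) was measured at 25.2, 28.8, 27.5 and 42.2 CPM in the controls and at 22.3, 23.9, 18.7 and 11.9 CPM in the mutants, again with no overlap. This gave a log2 fold change of -0.68 ± 0.23 (SE; adjusted p = 0.702) in 8 kidneys and -0.48 ± 0.24 (SE; adjusted p = 0.502) in 6. In both genes control 4 was highest and mutant 4 lowest.

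*H2-Q6* and *H2-Q7* are related neighbours, with 10.8% and 12.0% of their windows shared with other genes. *H2-Q6* shared most with *H2-Q7* (166 windows) and *H2-Q7* shared most with *H2-Q10* (270 windows). How RSEM divided reads among such genes bears on their counts. The posterior SD of the *H2-Q6* and *H2-Q7* counts was at most 0.912% and 0.892%, and with 1 posterior SD taken off the counts the log2 fold changes were -1.16 and -0.69. Taking off so small an SD could move these values only little, so it is no check on how reads were divided. The listed genes *H2-Q8* and *H2-Q9* had no matched entry, so no counts were read for them. Their part in the values of *H2-Q6* and *H2-Q7* was not tested. The ratio of *H2-Q6* to *H2-Q7* was 1.80, 1.36, 1.61 and 1.42 in controls 1 to 4 and 1.34, 1.12, 0.917 and 0.911 in mutants 1 to 4 (exact permutation p = 0.0286, adjusted over 4 ratios 0.0571). The ratio of *H2-K1* to *H2-D1* was 1.15 ± 0.14 (SD, n = 4) in controls and 1.07 ± 0.09 (SD, n = 4) in mutants (exact permutation p = 0.343). Of the remaining Q genes, *H2-Q4* ranged from 12.5 to 22.4 CPM, *H2-Q10* from 0.102 to 2.12 CPM, *H2-Q5* from 0.289 to 1.87 CPM and *H2-Q2* from 0.296 to 1.15 CPM, and *H2-Q1* reached 0.0883 CPM. Of the T genes, *H2-T22* ranged from 54.6 to 81.6 CPM, *H2-T23* from 27.6 to 44.9 CPM, *H2-T24* from 1.06 to 5.17 CPM and *H2-T10* from 0.481 to 2.10 CPM, and *H2-T3* reached 0.102 CPM. The control and mutant ranges overlapped in each of these Q and T genes, of which *H2-Q1* and *H2-T3* were under the level that 3 counts give.

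Other lists also held genes with an unadjusted edgeR p under 0.05 in 8 kidneys. *H2-DMb1*, a subunit of the exchange factor that loads class II molecules, was measured at 18.2, 16.8, 25.2 and 25.8 CPM in the controls and at 17.6, 14.5, 11.6 and 10.5 CPM in the mutants, with a log2 fold change of -0.67 ± 0.20 (SE; adjusted p = 0.596). In the 6 kidneys its log2 fold change was -0.36 ± 0.20 (SE; adjusted p = 0.549), no longer with an unadjusted p under 0.05. It shares 11.3% of its windows with *H2-DMb2*. *Ifi35*, an interferon-induced gene, had a log2 fold change of -0.31 ± 0.12 (SE; adjusted p = 0.741) in 8 kidneys and -0.16 ± 0.14 (SE; adjusted p = 0.692) in 6, with every mutant below every control. *Irf8*, a factor of macrophage and dendritic cell development, had one of 0.34 ± 0.14 (SE; adjusted p = 0.768) in 8 kidneys and 0.48 ± 0.15 (SE; adjusted p = 0.326) in 6.

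The H2 genes lie on chromosome 17, from 2.14 to 5.63 Mb beyond the end of the floxed *Sik1* gene, and *Tapbp* lies at 2.06 Mb. Of 118 tested genes between *Tapbp* and *H2-M2*, 8 (6.78%) had an unadjusted edgeR p under 0.05 with lower values in mutants, against 3.59% of all genes, and 0 with higher values. The 8 include *H2-Q6*, *H2-Q7* and *H2-DMb1*, and the median log2 fold change over the 118 genes was -0.03. *H2-Ea-ps*, which encodes the alpha chain of I-E in haplotypes that express it and is silent in the b haplotype of the reference genome, had 0 counts in all 8 kidneys. The haplotype carried by each mouse is not labelled. The part of haplotype and of linkage to floxed *Sik1* in these values was not tested.

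**Figure D4:**
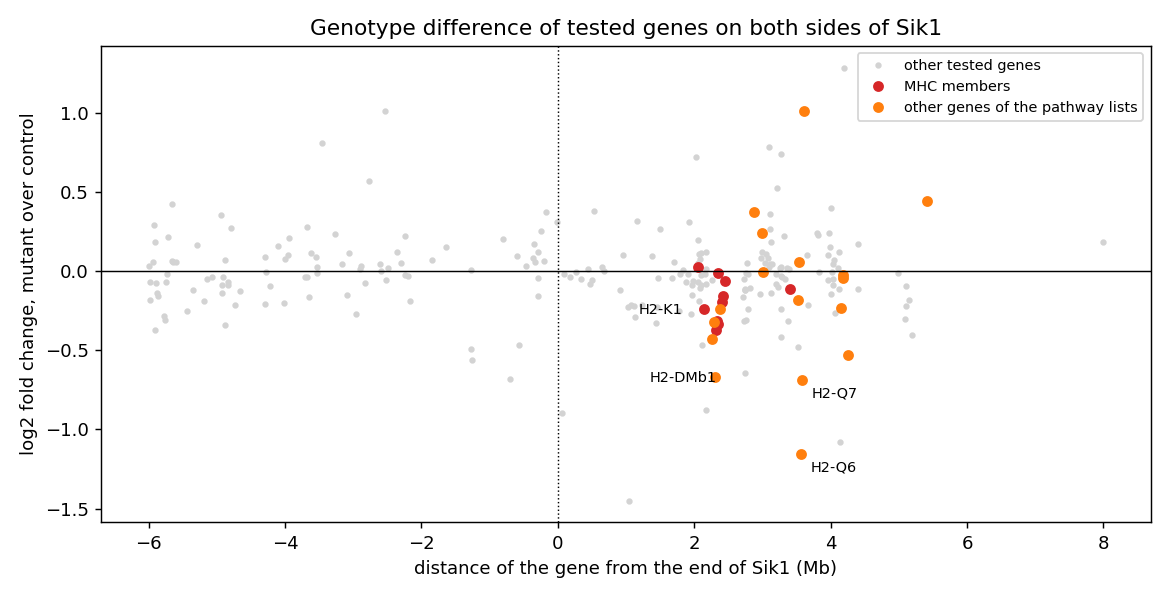
Log2 fold change (mutant over control, y axis) of tested genes against their distance in Mb from the end of *Sik1* (x axis), with the genes described here in red and other genes of the pathway lists in orange. The H2 genes begin 2.14 Mb from *Sik1*, and *H2-Q6* (-1.15), *H2-Q7* (-0.68) and *H2-DMb1* (-0.67) are the lowest of the coloured points.

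Markers of the cells that carry MHC and interferon response genes were read beside these results, since in bulk samples fewer cells of a type and less RNA per cell cannot be told apart. No marker was at 0 in all 8 kidneys. The 7 endothelial markers summed to 390, 407, 529 and 595 CPM in controls 1 to 4 and to 512, 442, 392 and 378 CPM in mutants 1 to 4, highest in controls 3 and 4. The 13 macrophage and dendritic cell markers summed to 147, 143, 173 and 197 CPM in controls 1 to 4 and to 215, 198, 139 and 175 CPM in mutants 1 to 4. The 7 B and plasma cell markers summed to 10.7, 11.1, 17.5 and 18.9 CPM in the controls and to 19.3, 14.2, 12.7 and 15.3 CPM in the mutants. Both were higher in controls 3 and 4 than in controls 1 and 2, as were the 42 genes, and highest in mutant 1. The 5 general leukocyte markers summed to 33.6, 36.0, 36.8 and 55.9 CPM in the controls and to 49.4, 44.9, 27.6 and 37.4 CPM in the mutants, with control 4 highest. The 9 T and NK cell markers summed to 13.9, 11.7, 8.01 and 9.46 CPM in the controls and to 11.7, 12.0, 9.98 and 8.47 CPM in the mutants, with controls 3 and 4 below controls 1 and 2. Only 3 of these 9 markers passed the filter on low counts. In those 3 the median fold of controls 3 and 4 over controls 1 and 2 was 1.89, opposite to the sum. The 6 stromal markers summed to 156, 182, 238 and 357 CPM in controls 1 to 4 and to 196 to 531 CPM in mutants. The 7 adipocyte markers summed to 22.3, 29.9, 219 and 67.1 CPM in controls 1 to 4 and to 166 to 262 CPM in mutants, lowest in controls 1 and 2. The 9 tubule and podocyte markers summed to 10068 to 12130 CPM over all kidneys. The part of cell makeup in the levels of the 42 genes was not tested.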

How the data were processed

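Whole-kidney RNA-Seq (BGISEQ500) from 4 control and 4 SIK mutant mice was analysed from the processed file of each kidney. The submitters' processing notes name FastQC, STAR 2.7.2b, RSEM 1.3.0, DESeq2 and the build mm10. The use of strand is not given in the sources used here. The deposited files hold unnormalised expected counts per gene from RSEM, which divides ambiguous reads among genes. In the same files the authors deposited TPM values, scaled to effective length and library total. The effective lengths and the posterior SDs, which are other deposited values, served as measures of transcript mix and of read sharing.

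Expected counts were rounded and tested with the edgeR 4.0.16 quasi-likelihood test in R 4.3.3 (TMM factors, filterByExpr, no covariate, Benjamini-Hochberg adjustment over 14326 genes). CPM used the TMM factors, and permutation tests over 70 assignments were exact and two-sided. The fits were tested on simulated counts. DESeq2 1.42.0 and limma 3.58.1 gave alternatives, as did other factors, filters, scales and left-out kidneys. The deposited Ensembl identifiers matched GENCODE M21 for 55141 of 55401 genes.

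The members, the lists and the tests were chosen with earlier results of these data known. Values per kidney are given for the 2 genes with the highest mean TPM in each role and for genes with an unadjusted p under 0.05 or with ranges apart. From the other lists up to 3 genes with the lowest p under 0.05 are named, together with *Cd74* and the H2-Q and H2-T genes; some genes that the rule names are not reported here.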

Additional observations from a re-analysis of the deposited data

Results flagged for a closer look

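Single kidneys were compared with the others of their group by Dixon's test at the 95% level over 92 groups of 4 CPM values, and 3 values stood apart, where chance alone gives about 1 in 20 groups. *Oasl2*, an OAS-like antiviral gene, was at 13.5 CPM in mutant 1, with the other mutants between 8.56 and 9.10 CPM. *Usp18*, which removes ISG15 from proteins, reached 3.88 CPM in mutant 1, and the remaining mutants lay between 1.96 and 2.21 CPM. *Tap1*, a peptide transporter subunit, had its highest value, 18.3 CPM, in control 4, and the remaining controls lay between 10.1 and 11.4 CPM.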

How the results depend on the processing

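The count of the 42 genes called at an adjusted p under 0.05 was 0 under all 23 alternatives, and 1 to 8 of them had an unadjusted p under 0.05 except in 5 alternatives with 0. That count was 8 without control 1, 6 without mutant 1, 3 without control 2 and 0 without control 4. In the same order, these fits gave 1181 of 14541, 956 of 14488, 951 of 14538 and 768 of 14450 tested genes at that level. Over all genes, where edgeR called 0 (911 at an unadjusted p under 0.05), DESeq2 called 67, limma-voom 2, limma-trend 4 or 5 (TPM with a pseudocount of 1 or 0.1), no filter 9, the non-legacy edgeR fit 1, a Y-linked covariate 15 and the 6 kidneys with Y-linked reads 21; leaving out 1 kidney gave 0 to 1. The median log2 fold change of the 42 genes was 0.148 with the Y-linked covariate and 0.154 in the 6 kidneys, against -0.260 to -0.063 elsewhere. The TPM scales shift the median of all genes by 0.088 and 0.106.

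With the Y-linked covariate and in the 6 kidneys, the log2 fold change turned for *Gbp3* (0.22 and 0.19), *H2-K1* (0.02 and 0.03), *B2m* (0.15 in both), *H2-Aa* (0.12 and 0.14), *Ifi27* (0.11 in both) and *Ifit3* (0.39 and 0.38). It also turned for *B2m* on both TPM scales (0.06). With single kidneys left out it ran from -0.15 to 0.05 for *B2m* and from -0.26 to 0.06 for *H2-Aa* (over 0 without control 4), from -0.39 to 0.08 for *Ifit3* (over 0 without control 3), and from -0.12 to 0.22 for *Gbp2* (-0.09 without control 1, -0.10 without control 2, -0.12 without mutant 1). The covariate took up 34.6% of the genotype term. With the replicate number as a block, 0 genes were called and the median was -0.166. Samples of the same number did not deviate together (correlations from -0.288 to 0.0531). No sign of pairing by number was seen, but 4 samples per group cannot exclude it. The cause of these differences was not tested.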
